A study of Mus musculus with 6 samples.

Results

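The genes described here code for the vascular endothelial growth factor (VEGF) ligands, their receptors, adrenomedullin and angiopoietin-like 4. They were measured in cultured mouse microglia, the resident macrophages of the brain, kept for 6 h at 21% oxygen (normoxia) or 1% oxygen (hypoxia). The list holds 10 genes, named by their role with earlier results of these data known, and 30176 genes were measured. A gene was taken where a feature of the array carried its symbol and no other, and 9 of the 10 had 1 such feature each. These were Vegfa, Vegfb, Vegfc, Pgf, Adm, Angptl4, Flt1, Kdr and Nrp2. The feature that carried Nrp1 also carried the symbol of a microRNA, so Nrp1 was not analysed here.

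The cultures were grown from newborn (P0) pups of the outbred CD1 strain, with 5 mice pooled, and no genetic change or other treatment is named in the labels. The cultures carry the numbers 3, 4 and 6 in the labels, here replicates 1, 2 and 3 of each group. From every culture 1 array was run in normoxia and 1 in hypoxia. Each group thus had 3 arrays, and this number limits the precision. Values are log2 intensities normalized by the authors with RMA, so a difference of 1 is a doubling. Intensities of different genes come from different probes and were not set against each other. Array medians lay between 5.84 and 5.92. All 9 measured microglial markers, such as Csf1r and C1qa, were above 5.95, the 95th percentile of the means of 1224 olfactory receptor genes, which served as a guide to low intensity. The summed linear intensity of these markers was 30699 to 30893 in normoxia and 29088 to 31412 in hypoxia. The arrays measured whole cultures, in which more cells of a type and more RNA per cell cannot be told apart.

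VEGF-A is secreted by cells short of oxygen and acts on endothelial cells through the receptor VEGFR2, encoded by Kdr, to start vessel sprouting. VEGFR1, encoded by Flt1, binds VEGF-A, VEGF-B and placental growth factor, signals weakly, is made by endothelial cells and by monocytes and macrophages, and has a secreted form that traps ligand. VEGF-C acts mainly on VEGFR3 of lymphatic vessels, and neuropilins are co-receptors that also bind class 3 semaphorins. Adrenomedullin is a vasodilator peptide that acts through the receptor Calcrl joined to a RAMP protein. In many cell types Vegfa and Adm are textbook targets of the hypoxia-inducible factors, which bind a short core sequence in DNA.

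Adm and Vegfa were the members with the largest differences between 1% and 21% oxygen, and the remaining 7 differed by at most 0.55 on the log2 scale. Adm was 3.62-fold higher in hypoxia and Vegfa 2.34-fold higher, and both were higher in each of the 3 cultures. By limma without a block, 0 of the 9 members passed an adjusted p of 0.05, against 0.209% of all genes called higher and 0.0166% called lower. At an unadjusted p of 0.05, 5 of 9 passed, all of them higher, against 4.28% of all genes higher and 6.1% lower. The same 5, which were Adm, Vegfa, Pgf, Vegfc and Flt1, had hypoxia values that were all above the normoxia values, as had 8.24% of all genes. With Vegfb, 6 of 9 were higher in each of the 3 cultures, as were 24.8% of all genes. In a fit blocked by culture, which compares the conditions within each culture, Adm and Vegfa were called higher and no member lower, against 0.421% of all genes called higher and 0.116% called lower. The median log2 fold change was 0.20 over the 9 members and 0.03 over all genes.

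**Figure D1:**
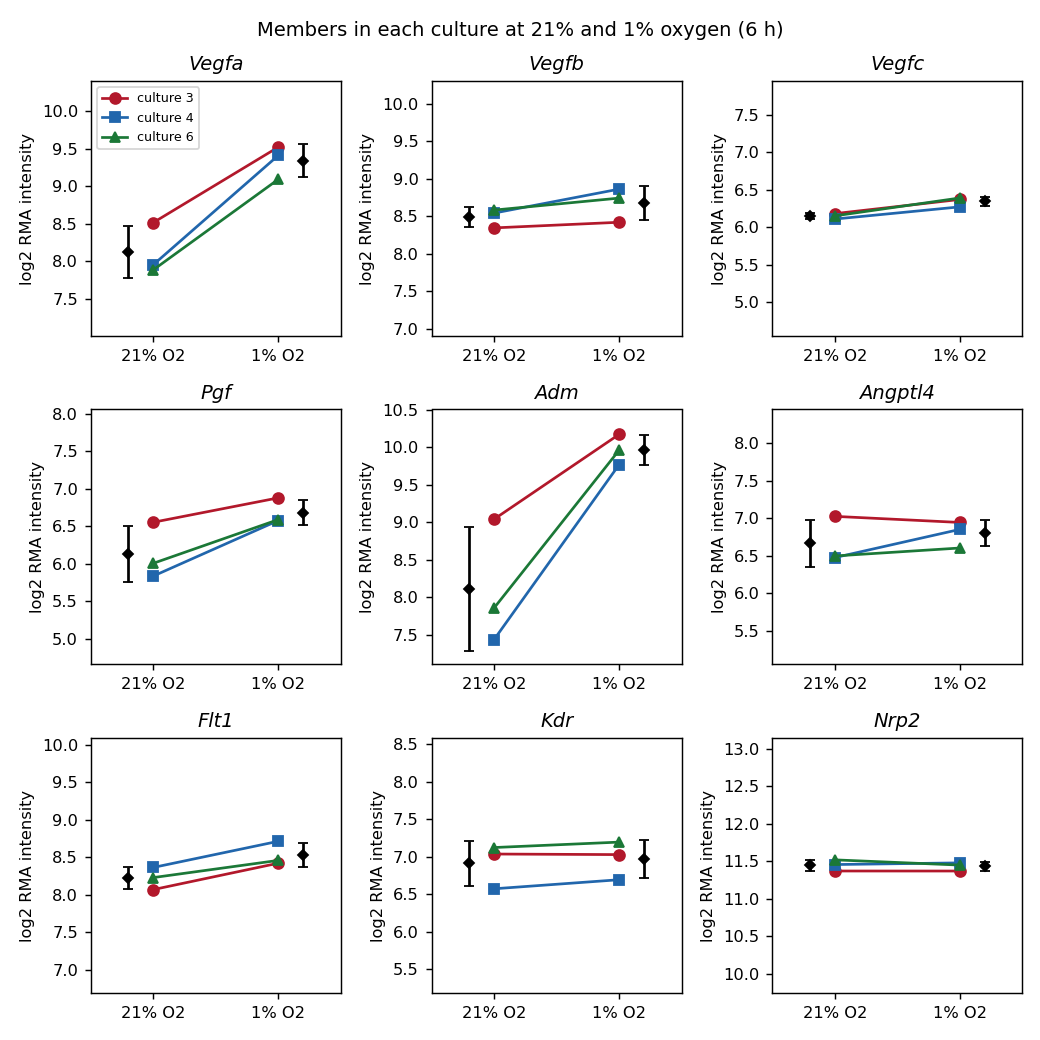
Log2 RMA intensity (vertical axis, each panel spanning the same range) of the 9 measured members at 21% and 1% oxygen, with 1 line per culture. Black diamonds and bars give the mean and SD of the 3 arrays of a group. The lines of Adm and Vegfa rise steeply in all 3 cultures, and those of Nrp2 are flat.

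Adm (chromosome 7 of GRCm38.p6, 110627657 to 110629820) stood at a log2 intensity of 9.04 in culture 3, 7.43 in culture 4 and 7.85 in culture 6 under normoxia. In hypoxia it stood at 10.17, 9.77 and 9.96 in the same order. Every hypoxia array was thus above every normoxia array, and culture 3 was the highest of the 3 in both conditions. The group means were 8.11 ± 0.83 (SD, n = 3) and 9.96 ± 0.20 (SD, n = 3), a log2 fold change of 1.86 (standard error 0.36, 95% interval 1.03 to 2.68). The adjusted p from limma was 0.175 without the block and 0.0314 with it (standard error 0.22). Adm was number 7 of 30176 genes by log2 fold change, and the other 6 of these 7 genes passed without the block. Its SD in normoxia was 0.83, whereas among those 6 genes the highest was 0.37. The adjusted p without the block was 0.00285 for Adm when the normoxia array of culture 3, its highest in normoxia, was left out. It was 0.0982 without the whole of culture 3, and 0.138 to 0.523 with any other single array left out. With the block it was 0.0767 after median centring, 0.0688 after quantile normalization and 0.0639 after cyclic loess. Adm was thus not called there, at log2 fold changes of 1.81, 1.91 and 1.91. With the block but fewer arrays, the adjusted p of Adm was 0.0317 without culture 3, 0.000857 without culture 4 and 0.0435 without culture 6.

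Vegfa (chromosome 17, 46016993 to 46032377) stood at 8.51, 7.95 and 7.88 in normoxia in cultures 3, 4 and 6. In hypoxia it stood at 9.52, 9.41 and 9.09. The groups did not overlap, and culture 3 was again the highest in both conditions. The means were 8.12 ± 0.35 (SD, n = 3) and 9.34 ± 0.22 (SD, n = 3), a log2 fold change of 1.22 (standard error 0.18, 95% interval 0.81 to 1.64). The adjusted p from limma was 0.0597 without the block and 0.00904 with it (standard error 0.10). With the block the call held after the same 3 scalings (adjusted p 0.0212 to 0.0244 from limma) and was lost without culture 3 (0.0829). Without the block, Vegfa passed when the normoxia array of culture 3, its highest in normoxia, was left out (0.0142). It did not pass without the whole of culture 3 (0.174) or with any other single array left out (0.0989 to 0.229). Vegfa was number 23 of all genes by log2 fold change. Of these 23 genes, 19 passed without the block, and the other 4 were Adm, Vegfa, Ndrg1 and Plod2.

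The stretch of 250 bases before the annotated start is shown for Adm and Vegfa, as the members called with the block, and for Nrp2, as a member that hardly differed. Capitals mark the core of the hypoxia response element, searched as ACGTG and GCGTG on both strands, so that CACGC is GCGTG read from the other strand. The sequences are those of RefSeq on GRCm38.p6, and 9 of the 10 listed genes were matched by symbol. The windows are chr7:110627407-110627656 on the plus strand for Adm, chr17:46032378-46032627 on the minus strand for Vegfa and chr1:62703067-62703316 on the plus strand for Nrp2.
Adm: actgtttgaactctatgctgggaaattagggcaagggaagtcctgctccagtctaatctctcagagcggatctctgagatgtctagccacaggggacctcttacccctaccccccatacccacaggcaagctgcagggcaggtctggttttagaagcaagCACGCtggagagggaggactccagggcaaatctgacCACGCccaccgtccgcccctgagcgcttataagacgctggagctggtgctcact
Vegfa: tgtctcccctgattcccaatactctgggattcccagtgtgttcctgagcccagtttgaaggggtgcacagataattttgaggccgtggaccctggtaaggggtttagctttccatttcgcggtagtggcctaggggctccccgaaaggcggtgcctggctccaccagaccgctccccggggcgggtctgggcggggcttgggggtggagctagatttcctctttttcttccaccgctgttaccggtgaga
Nrp2: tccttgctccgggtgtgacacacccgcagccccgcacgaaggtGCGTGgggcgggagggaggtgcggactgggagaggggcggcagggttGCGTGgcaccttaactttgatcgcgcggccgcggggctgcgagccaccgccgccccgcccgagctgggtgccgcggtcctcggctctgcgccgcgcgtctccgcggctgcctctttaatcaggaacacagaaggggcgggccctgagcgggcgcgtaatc
The Adm window held GCGTG at 2 places, both on the opposite strand, whose first bases lie 90 and 54 bases before the start. The Nrp2 window also held it at 2 places, 207 and 160 bases before the start, and ACGTG was in neither window. These letters were not in the Vegfa window. Bases further before the start were not searched, so the windows do not tell whether a gene has the core elsewhere. The window of another annotated start of Vegfa held 2, but that start lies within the gene, 7214 bases from its outer start. Over 32841 windows of this length, 38.6% held at least 1 of these cores and 16.7% at least 2.

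Pgf (chromosome 12, 85166637 to 85177785), which codes for placental growth factor, a ligand of VEGFR1, stood at 6.55, 5.84 and 6.01 in normoxia in cultures 3, 4 and 6. In hypoxia it stood at 6.88, 6.58 and 6.59. The groups narrowly failed to overlap, and 1 of the 6 arrays, normoxia of culture 4, was below the guide to low intensity. The log2 fold change was 0.55 (standard error 0.18, 95% interval 0.13 to 0.97), with an adjusted p from limma of 0.411 without the block and 0.0746 with it. Vegfc (chromosome 8, 54077532 to 54186454), the lymphatic ligand, stood at 6.18, 6.11 and 6.15 in normoxia and 6.37, 6.27 and 6.39 in hypoxia. All 6 values lay close to the guide, and the log2 fold change was 0.20 (standard error 0.07, 95% interval 0.04 to 0.36, adjusted p = 0.427 from limma, and 0.210 with the block).

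Vegfb (chromosome 19, 6982472 to 6987651), the other VEGFR1 ligand of the list, stood at 8.35, 8.54 and 8.58 in normoxia and 8.42, 8.86 and 8.74 in hypoxia. The groups overlapped, because culture 3 was the lowest in both conditions. Its log2 fold change was 0.18 (standard error 0.12, 95% interval -0.10 to 0.47, adjusted p = 0.635 from limma, and 0.278 with the block). Angptl4 (chromosome 17, 33774900 to 33781575) codes for a secreted inhibitor of lipoprotein lipase. It stood at 7.03, 6.48 and 6.50 in normoxia and 6.95, 6.85 and 6.61 in hypoxia. The groups overlapped and the cultures differed in sign, with a change of -0.08 in culture 3, 0.38 in culture 4 and 0.11 in culture 6. The log2 fold change was 0.13 (standard error 0.16, 95% interval -0.23 to 0.50, adjusted p = 0.765 from limma).

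Among the receptors, Flt1 (chromosome 5, 147561604 to 147726438), which codes for VEGFR1, stood at 8.07, 8.36 and 8.23 in normoxia in cultures 3, 4 and 6. In hypoxia it stood at 8.42, 8.71 and 8.46. The groups did not overlap, and the changes in the 3 cultures were 0.35, 0.35 and 0.23. The log2 fold change was 0.31 (standard error 0.11, 95% interval 0.06 to 0.56), with an adjusted p from limma of 0.427 without the block and 0.115 with it. The 1 feature of Flt1 does not tell the membrane form from the secreted form.

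Kdr (chromosome 5, 75932827 to 75979072), the gene of VEGFR2, stood at 7.04, 6.57 and 7.12 in normoxia and 7.03, 6.69 and 7.20 in hypoxia. The cultures differed from each other by up to 0.55 in normoxia, more than the conditions did, and culture 4 was the lowest in both. The log2 fold change was 0.06 (standard error 0.17, 95% interval -0.33 to 0.46, adjusted p = 0.897 from limma), and with the block the interval was -0.09 to 0.22. Kdr is known mainly from endothelial cells, and 5 of the 11 measured endothelial markers had a mean above the guide to low intensity. The summed linear intensity of the 11 was 1145, 821 and 942 in normoxia and 1240, 964 and 1111 in hypoxia in cultures 3, 4 and 6. It was thus higher in hypoxia in every culture and highest in culture 3. In normoxia, however, only 5 of the 11 markers were highest in culture 3. The median difference of culture 3 from the mean of cultures 4 and 6 was -0.056 on the log2 scale. All 11 had a log2 fold change above 0, as had 59.7% of all genes. As Flt1 was, 9 were higher in each of the 3 cultures, against 24.8% of all genes. Above 0 were also 10 of 11 fibroblast and pericyte, 7 of 7 astrocyte, 6 of 6 oligodendrocyte and 7 of 8 neuronal markers. Of the measured markers in these 4 lists, 9, 3, 6 and 4 in the same order had a mean above the guide to low intensity. Of the microglial markers, 3 of 9 were above 0. None of the 11 endothelial markers passed in either fit. Of the defining markers, Pecam1, an adhesion protein of endothelial and blood cells, stood at 7.73, 7.54 and 8.04 in normoxia and 7.99, 7.76 and 8.18 in hypoxia. Cdh5, the cadherin of endothelial junctions, stood at 8.71, 6.69 and 7.10 and then at 8.83, 7.32 and 7.70, with culture 3 highest. The tight junction gene Cldn5 stood at 7.07, 7.20 and 7.33 and then at 7.20, 7.49 and 7.39. Esam, another adhesion gene, had groups that did not overlap and differed by 0.28 on the log2 scale (standard error 0.10), with an adjusted p of 0.434 from limma. Tek, an angiopoietin receptor, and Emcn, a sialomucin, were below the guide on all 6 arrays, as were Erg, Ocln and Slco1a4. The part of endothelial cells in the Kdr and Flt1 signals was not tested.

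Nrp2 (chromosome 1, 62703317 to 62818692), the co-receptor of VEGF-C and of class 3 semaphorins, stood at 11.37, 11.46 and 11.52 in normoxia and 11.37, 11.48 and 11.45 in hypoxia. All 6 values lay within 0.15 of each other. The log2 fold change was -0.02 (standard error 0.07, 95% interval -0.19 to 0.15, adjusted p = 0.941 from limma). Quantile normalization turned it to 0.13 and cyclic loess to 0.10, neither of which passed.

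**Figure D2:**
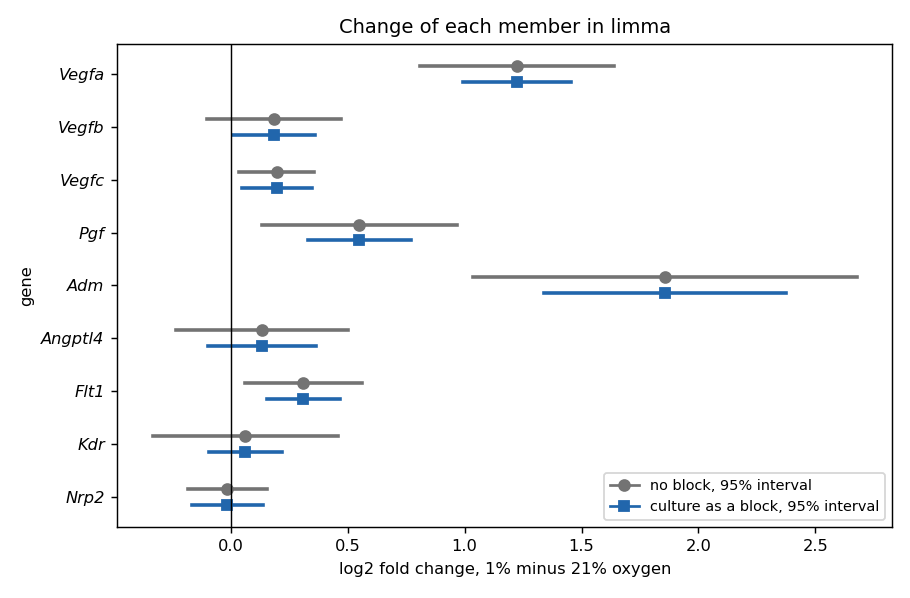
Log2 fold change (horizontal axis, 1% minus 21% oxygen) of the 9 measured members in limma, with 95% intervals without a block (grey circles) and with the culture as a block (blue squares). The intervals are narrower with the block, and those of Angptl4, Kdr and Nrp2 include 0 in both fits.

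Secreted factors were then set against receptors within each culture, by the median change of the 6 secreted factors and of the 3 receptors. In culture 3 the medians were 0.26 and 0.00, in culture 4 they were 0.56 and 0.12, and in culture 6 they were 0.41 and 0.07. The secreted factors were thus ahead by 0.26, 0.44 and 0.34, in the same direction in 3 of 3 cultures. With only the 4 VEGF ligands counted, the values were 0.26, 0.41 and 0.34. The ranges overlapped in every culture, since the difference of Flt1 was above that of some secreted factors in each. These were Vegfb, Vegfc, Pgf and Angptl4 in culture 3, Vegfb and Vegfc in culture 4, and Vegfb and Angptl4 in culture 6. The change of Vegfa exceeded that of Flt1 by 0.65, 1.11 and 0.98 in cultures 3, 4 and 6, and that of Kdr by 1.01, 1.34 and 1.14. Over the group means the secreted factors were ahead by 0.31, and by 0.19 without the normoxia array of culture 6. No test was made of these differences, because the members were chosen with earlier results in view.

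**Figure D3:**
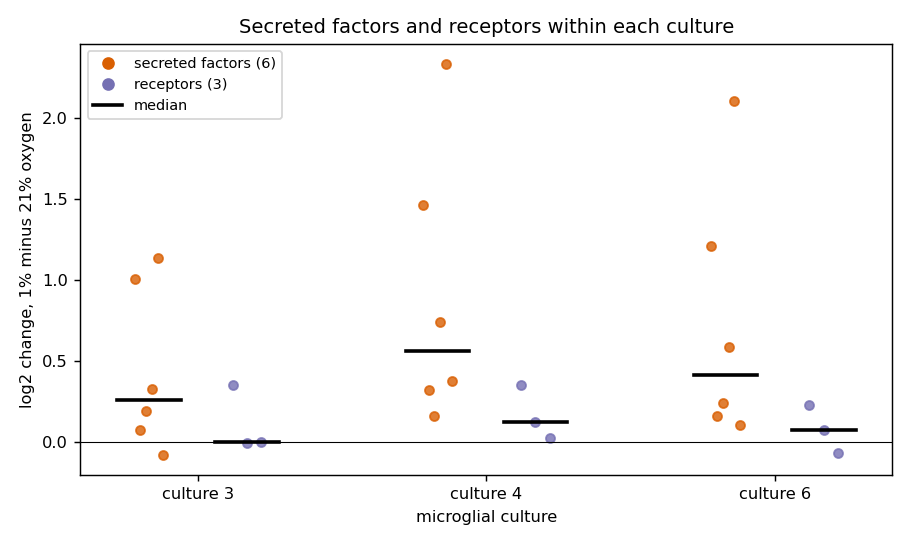
Log2 change within each culture (vertical axis, 1% minus 21% oxygen) of the 6 secreted factors (orange) and the 3 measured receptors (purple), 1 point per gene, with bars at the medians. The medians of the secreted factors are 0.26, 0.56 and 0.41 in cultures 3, 4 and 6 and those of the receptors 0.00, 0.12 and 0.07.

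The response of Adm differed between the cultures along with the level from which it started. Culture 3 started highest, at 9.04, and changed by 1.13, a 2.19-fold difference. Cultures 6 and 4 started at 7.85 and 7.43 and changed by 2.11 and 2.33, or 4.30-fold and 5.04-fold. The distance between the highest and the lowest culture was 1.61 in normoxia, wider than for 99.8% of all genes, and 0.40 in hypoxia, wider than for 85.2%. For Vegfa, culture 3 started at 8.51 and changed by 1.01, or 2.01-fold. Culture 4 started at 7.95 and changed by 1.46, or 2.75-fold, and culture 6 started at 7.88 and changed by 1.21, or 2.31-fold. The lowest start of Vegfa therefore did not have the largest change, and its distance between cultures was 0.63 in normoxia and 0.43 in hypoxia.

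The change contains the starting level, so the highest start tends to go with the smallest change in any gene. The culture with the highest start had the smallest change for 5 of the 9 members and for 48.5% of all genes. Culture 3 had the smallest change for 6 of the 9 members and for 44.5% of all genes, and culture 4 the largest for 7 of the 9 members and for 31.0%. With 3 cultures no correlation was computed. Pgf and Angptl4 were also highest in culture 3 in normoxia, by 0.63 and 0.54 over the mean of the other 2 cultures, against 1.39 for Adm and 0.60 for Vegfa. Vegfb and Flt1 were lower there, by 0.22 and 0.23. Markers of fibroblasts and pericytes moved with the same culture. Their summed linear intensity was 5128 in the normoxia array of culture 3 against 1833 and 2184 in cultures 4 and 6, and 8 of the 11 measured markers were highest there. In hypoxia it was 6756, 2836 and 2741, so in every culture it was higher than in normoxia, and 9 of the 11 had a mean above the guide to low intensity. With the block 2 of them, the collagen genes Col1a1 and Col3a1, were called higher (adjusted p = 0.0460 and 0.0453 from limma), and none without it. The part of such cells in the levels of Adm and Vegfa was not tested.

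**Figure D4:**
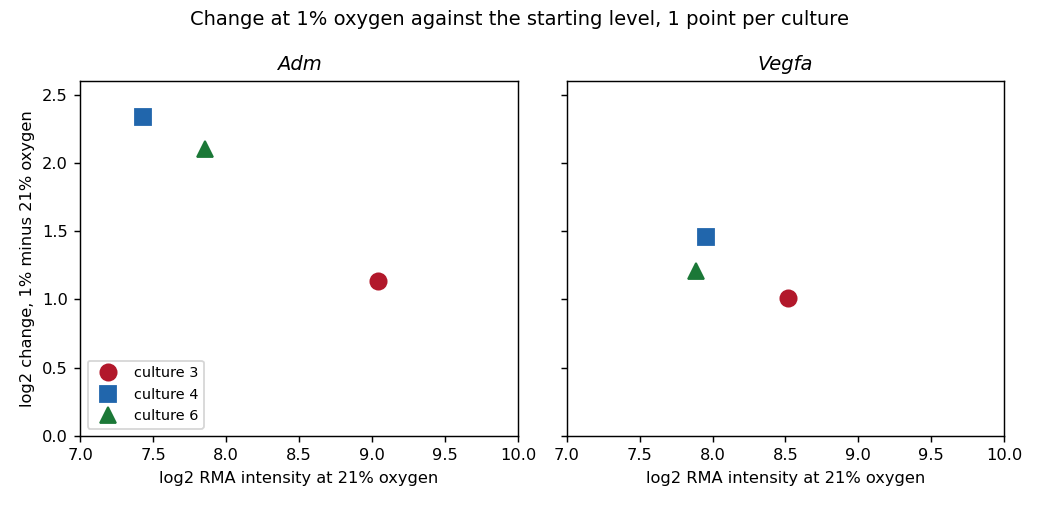
Log2 change at 1% oxygen (vertical axis) against the log2 RMA intensity at 21% oxygen (horizontal axis) for Adm and Vegfa, 1 point per culture. For Adm, culture 3 lies at the lower right (start 9.04, change 1.13) and culture 4 at the upper left (7.43, 2.33).

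Members aside, the genes with the pattern most like that of Vegfa over the 6 arrays were Bhlhe40, a transcriptional repressor (Pearson r 0.990), Ero1a, an oxidase of the endoplasmic reticulum (0.969), Gys1, a glycogen synthase (0.958), Fam162a (0.956) and Pdk1, a kinase that holds back pyruvate dehydrogenase (0.955). For Adm, members again aside, they were Ier3, an immediate early gene (0.975), Bhlhe40 (0.947), Hk2, a hexokinase (0.946), Ero1a (0.921) and Fam162a (0.919). They were ranked among 222 genes with an SD of at least 0.5 over the arrays, with predicted and unnamed transcripts and small RNAs left out. The r between the members Adm and Vegfa was 0.959. It was above those of 4 of the 5 genes given for Adm and 3 of the 5 given for Vegfa. These values are a description, since the 6 arrays share 3 cultures and 2 conditions. The normoxia values of Bhlhe40 were 8.04, 7.66 and 7.70 in cultures 3, 4 and 6, with culture 3 highest as for Vegfa, and its hypoxia values were 9.19, 9.10 and 8.87. Those of Ier3 were 8.41, 7.70 and 8.12 and then 9.25, 9.20 and 9.30, with culture 4 lowest in normoxia as for Adm.

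Of 80 other genes listed for these pathways, 70 were measured. Without the block 0 of the 70 passed, beside 0.209% of all genes called higher and 0.0166% called lower. With it 1 was higher and 0 lower, beside 0.421% and 0.116% of all genes, shares at which a list of this size would hold few calls or none. The log2 fold change was above 0 for 54 of the 70 and for 59.7% of all genes, with a median of 0.07 over the list and 0.03 over all genes. The gene called with the block was Ccn2, which codes for a matricellular protein of fibroblasts and vessels, from the list of other angiogenic factors (21 genes, median log2 fold change 0.14). Ccn2 stood at 9.64, 8.01 and 8.21 in normoxia and 10.25, 8.75 and 9.18 in hypoxia in cultures 3, 4 and 6. Its groups overlapped, and its log2 fold change of 0.77 had an adjusted p from limma of 0.613 without the block and 0.0259 with it. Culture 3 was the highest in both conditions, as for the summed intensity of the fibroblast and pericyte markers.

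In the adrenomedullin and CGRP system, 7 of 9 listed genes were measured and none passed in either fit, with a median log2 fold change of 0.01. Calcrl, the receptor through which adrenomedullin acts, stood at 7.19, 6.92 and 7.11 in normoxia and 6.76, 6.67 and 6.64 in hypoxia in cultures 3, 4 and 6. It was lower in every hypoxia array than in every normoxia array, which held for 7.58% of all genes. Its log2 fold change was -0.38 (standard error 0.09, 95% interval -0.58 to -0.18), with an adjusted p from limma of 0.288 without the block and 0.0947 with it. Ramp2 and Ramp3 code for the partners that make Calcrl an adrenomedullin receptor. Their differences were 0.02 and -0.01 on the log2 scale (standard errors 0.09 and 0.07). Calcb, the gene of a CGRP peptide, had one of 0.12 (adjusted p = 0.564 from limma), and was below the guide to low intensity on all 6 arrays.

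In the remaining lists, of 4 to 22 measured genes, no gene passed in either fit, and the shares of all genes called were too small for this count to set the lists apart. Of the VEGF family genes not among the members, Flt4, the gene of VEGFR3, differed by 0.10 on the log2 scale (standard error 0.07) and Lyve1, a hyaluronan receptor of lymphatic vessels, one of 0.07 (0.07), with all 6 of its values below the guide. Among 4 measured angiopoietin-like genes, Angptl8 and Angptl6 had values of 0.10 (standard error 0.11) and 0.10 (0.09). Of 12 class 3 semaphorin and plexin genes, Sema3d and Sema3c had values of 0.24 (standard error 0.35) and 0.23 (0.27), with 2 of 6 arrays above the guide for each, and the list had a median of 0.14. Of 22 measured genes of VEGF receptor signalling, Map2k1, a kinase of the MAPK cascade, had a value of 0.25 (standard error 0.08) and Pik3r1, a regulatory subunit of phosphoinositide 3-kinase, one of -0.23 (0.10). Neither passed, with adjusted p-values from limma of 0.422 and 0.469 without the block and 0.185 for both with it.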

How the data were processed

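The deposited values are log2 intensities from RMA, with which the authors corrected background, equalised the arrays' distributions and summarised probes into features. Expression Console of Affymetrix, RMA, limma and the build mm10 are named in the submitters' processing notes. Of 72688 features, 30638 carried 1 symbol, 2176 several, and 39874 were not in the annotation table used here. The brightest feature was kept for each of 354 genes with several, which left 30176 genes. Differences were tested with lmFit and eBayes (limma 3.58.1, R 4.3.3), two-sided, over all genes with Benjamini-Hochberg adjustment, without a block, and the code was tested on simulated data. The labels pair the arrays by culture number. Deviations from the group means correlated at 0.566, 0.397 and 0.223 within cultures and at -0.498 to 0.141 between them, so the fit with the culture as a block is given too. Without the block p-values rest on the spread between cultures, and with it on the spread of the change. The members, lists and tests were chosen with earlier results of these data known. The text names all members, list genes past the threshold in either fit or else the 2 with the largest change, and the 5 genes most like Vegfa and Adm, and any other gene was picked after its values were seen. Depth does not apply to arrays, and their number limits the precision.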

Additional observations from a re-analysis of the deposited data

How the results depend on the processing

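In total 24 alternatives were run on the members, of which 6 that join the block with a scaling or a left-out culture were chosen after seeing the data. Of 216 values for single members, 189 kept their direction and their side of the threshold, 15 passed where the fit without a block had not, and 12 changed sign. The members called higher were 0 without the block, 2 with the replicate block (Adm and Vegfa), 2 with it as a random effect, and 1 with array weights (Vegfa). They were 1 with the block after median centring, quantile normalization or cyclic loess, in each case Vegfa. Without the block they were 0 to 2 with 1 array left out and 0 with 1 culture left out. With the block and 1 culture left out they were 1 to 2. The adjusted p from limma lay between 0.000342 and 0.501 for Vegfa and between 0.000857 and 0.840 for Adm. Over all genes, the fit without a block called 63 higher and 5 lower. It called 127 and 35 with the replicate block, 124 and 29 with the random block, and 116 and 32 with array weights. The lower genes were 2 after median centring and 3 after quantile normalization, without the block. The blocked fit called 53 higher and 6 lower after median centring, 87 and 10 after quantile normalization, and 88 and 11 after cyclic loess. With 1 array or culture left out, in either fit, 4 to 135 genes were higher and 0 to 94 lower. The secreted median minus the receptor median was 0.31, and 0.19 to 0.44 with 1 array or culture left out. The receptor median was -0.024 to 0.20 in the same runs and 0.13 after quantile normalization. Kdr changed sign to -0.089 with array weights and lay between -0.11 and 0.20 with 1 array or culture left out. Nrp2 changed sign to 0.0086 with array weights, to 0.13 after quantile normalization and to 0.10 after cyclic loess, with or without the block, and lay between -0.055 and 0.019 in the left-out runs. The cause was not tested. No value of background was used here, so signal over background is known only through the guide to low intensity.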

Other observations

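Some genes outside the list differed between the cultures more than between the conditions, and they were picked here after their values were seen. Sema3a, a ligand of neuropilins, stood at 6.69, 5.40 and 5.40 in normoxia and 6.55, 5.73 and 5.78 in hypoxia in cultures 3, 4 and 6. Its values in cultures 4 and 6 were below the guide to low intensity. Ccn1, which codes for a matricellular protein, stood at 10.70, 8.48 and 9.06 in normoxia and 11.08, 9.50 and 9.79 in hypoxia. Thbs1, which codes for an inhibitor of angiogenesis, stood at 10.97, 9.12 and 9.70 in normoxia and 11.47, 9.74 and 10.08 in hypoxia. Culture 3 was the highest in both conditions for these 3 genes.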
